A study of Homo sapiens with 16 samples.

Results

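The late response to 5-fluorouracil (5-FU) in ATF4-depleted colorectal cancer cells was read from 5 RNA sequencing libraries of 16 in the series. SW620 is an established human colorectal cancer cell line. All shATF4 cells carried a short hairpin directed at the mRNA of ATF4. Of the 5 libraries, 2 came from shATF4 cells kept for 48 h in 5 µM 5-FU and 3 from untreated shATF4 cells. A further 11 libraries were used only for reference: 3 of shATF4 cells after 24 h in 5 µM 5-FU, and 2 at 48 h, 3 at 24 h and 3 untreated of SW620 cells with a scrambled hairpin. The time was taken from the titles, because the treatment tag of the libraries titled 48 h reads 24 h. The labels do not say whether the hairpin line was 1 clone or a pool, nor whether each replicate had its own culture; p-values therefore measure only the spread between libraries, which may be technical. All cells grew in DMEM with serum, and the stated aim concerns the part of ATF4 in chemotherapy resistance.

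5-FU is a pyrimidine analogue that cells convert into nucleotides. Its products block thymidylate synthase, which makes the thymidine nucleotide for DNA, and they are also built into DNA and RNA, where they disturb ribosomal RNA processing. ATF4 is the main effector of the integrated stress response, a pathway in which kinases such as PERK phosphorylate the initiation factor eIF2, general translation falls and ATF4 protein is made. Its known targets include genes of amino acid synthesis and transport, aminoacyl-tRNA synthetases and the transcription factor CHOP (DDIT3).

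ATF4 mRNA was read first, as the target of the hairpin. In shATF4 cells it stood at 172, 169 and 179 CPM (counts scaled to the size of the library) untreated, at 91.1, 109 and 130 CPM at 24 h and at 114 and 118 CPM at 48 h. The scramble cells had 331 and 333 CPM at 48 h and 388, 364 and 384 CPM untreated. Every shATF4 library therefore lay below every scramble library listed here, and the mRNA was lowered, not absent. Within the shATF4 line ATF4 fell at 48 h by 0.58 ± 0.10 on the log2 scale (SE, adjusted p = 3.84e-05, edgeR's quasi-likelihood test), and the 2 groups did not overlap.

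Total counts of the 5 libraries ran from 15266049 to 16075877, and of all 16 from 14571611 to 17824188. The colorectal epithelium markers summed to 6510 and 6972 CPM at 48 h, against 11182 to 11750 CPM untreated, a sum that KRT8 and KRT18 dominate. Of 8 tested 5 fell, and CDH1, CDX2 and CDH17 rose. Of the 9 markers, CDX1 was under 1 CPM in all 5 libraries. Markers of fibroblasts summed to 59.4 to 66.3 CPM at 48 h and to 37.0 to 38.5 CPM untreated, with COL3A1 and DCN at 0 in these libraries. Immune markers summed to 3.01 to 3.29 CPM against 1.02 to 1.24 CPM, with MS4A1 among those at 0, and endothelial markers to 8.18 to 9.07 CPM against 3.86 to 5.40 CPM. Among other libraries, scramble untreated replicate 2 stood apart by a mitochondrial mRNA share of 1.42%, and shATF4 24 h replicate 3 by a ribosomal protein share of 6.48%. They enter the comparisons with the scramble line and with 24 h, and the shared estimate of spread.

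At 48 h of 5-FU, 10097 of the 17309 genes tested were called, which is 58.3%. A gene was called at a Benjamini-Hochberg adjusted p under 0.05. Of the called genes 5124 were higher (29.6% of those tested) and 4973 lower (28.7%). Large changes were mostly rises: 2881 genes were at least 2-fold higher (16.6%) and 862 at least 2-fold lower (4.98%), and 1258 against 82 passed 4-fold. Direction went with level. Among genes averaging 100 CPM or more, 297 rose and 1665 fell. Between 1 and 10 CPM, 1900 rose and 515 fell. Of 2341 long non-coding RNA genes tested 694 rose and 189 fell, while of 13633 protein-coding genes 4191 rose and 4546 fell. Ribosomal protein genes took 3.60% and 3.34% of counts at 48 h, against 6.15%, 6.15% and 6.13% untreated. Scaling on the upper quartile moved the median of all genes by 0.13 (log2) and turned the split of calls to 61.2% higher, against 50.7% higher here. Where 5 or fewer members of a gene list moved in a direction they are named, apart from some not reported here; those named with a change and no error were chosen after their values were seen. Log2 changes below use TMM scaling, under which the median of all genes was 0.03. Counts of list members are over those that passed the count filter, which a gene rare in untreated cells can pass through treated libraries alone. Bulk RNA cannot tell fewer cells of a kind from less RNA per cell, and the amount of RNA per cell was not measured.

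**Figure D1:**
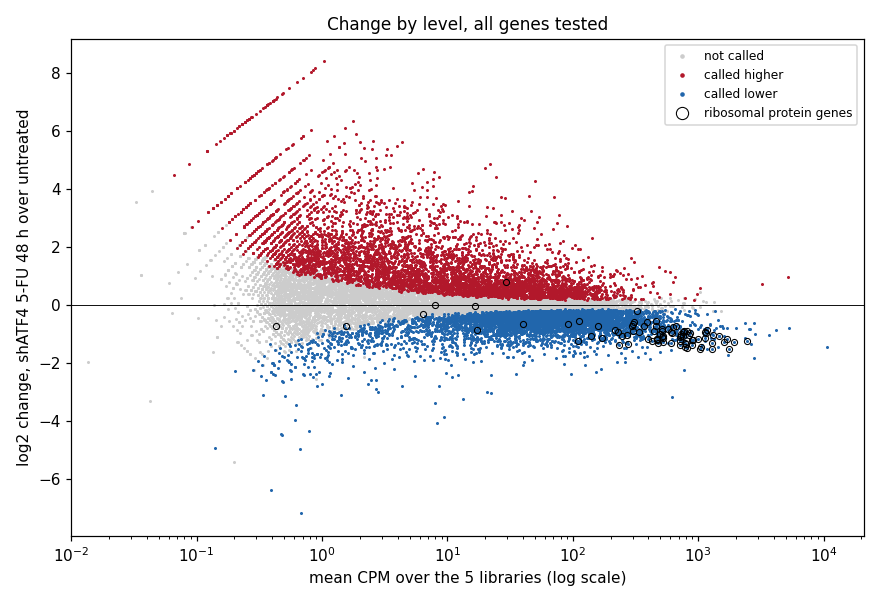
Log2 change (shATF4 5-FU 48 h over untreated) against the mean CPM over the 5 libraries on a log axis, 1 point a gene; red and blue are genes called higher and lower, grey not called, black circles ribosomal protein genes. Rises dominate among genes under 10 CPM and falls among genes of 100 CPM or more, where 1665 fell and 297 rose.

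The 12 largest rises of protein-coding genes, among called genes of at least 1 CPM on average and with no overlap between the groups, were of genes rare or near absent before the drug. SPTSSB, part of serine palmitoyltransferase, which begins sphingolipid synthesis, had 160 counts at 48 h against 2 in the 3 untreated libraries, a count ratio of 94.35 (95% exact interval 25.7 to 786). PLIN5, a lipid droplet coat protein, had 136 counts against 2, a ratio of 80.2 (21.8 to 669). STX11, a membrane fusion protein, had 111 counts against 2, a ratio of 65.45 (17.7 to 547). PDCD1, which encodes the immune checkpoint receptor PD-1, had 98 counts against 2, a ratio of 57.8 (15.6 to 484). CPA4, a carboxypeptidase, had 102 against 3, a ratio of 40.1 (13.3 to 198). These intervals cover counting error only, and they are wide because the untreated side holds 2 or 3 reads.

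The other 7 of the 12 are given as CPM or log2 change, and some of them also had few untreated reads. EGFR, the epidermal growth factor receptor, had 4.83 and 5.03 CPM at 48 h against 0.068, 0.207 and 0 CPM untreated, a log2 change of 5.62 ± 0.47 (adjusted p = 2.86e-09). The Wnt ligand WNT9A had 5.21 and 7.27 CPM against 0, 0.069 and 0.286 CPM. The secreted protease inhibitor SLPI had 11.03 and 9.94 CPM against 0.137, 0.277 and 0.215 CPM. All 3 were detectable in every treated library and close to the limit of counting without drug. IQGAP2, a scaffold protein, rose by 5.47 ± 0.40 (log2), AGR2, a protein of secretory epithelium, by 5.39 ± 0.42, PTPN7, a tyrosine phosphatase, by 5.35 ± 0.35 and the lysosomal protease cathepsin S (CTSS) by 5.16 ± 0.34. In the same 5 libraries the immune marker CSF1R also rose, to 1.98 and 1.75 CPM against 0.273, 0.138 and 0.143 CPM. It was the 1 immune marker called of 2 tested. The other, CD14, had 0.933 and 0.601 CPM at 48 h against 0.683, 1.037 and 0.787 CPM untreated. Of all 9 immune markers 7 were under 1 CPM in all 5 libraries, and MS4A1 stayed at 0. The part of other cells in the rises of PDCD1 or CTSS was not tested.

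Among the 12 largest falls was 1 very abundant gene. TNC (chromosome 9, 115019578 to 115118257, minus strand, GRCh38) encodes tenascin-C, an extracellular matrix glycoprotein, and stood at 106 and 102 CPM at 48 h against 968, 937 and 960 CPM untreated. That is 9.19-fold lower, a log2 change of -3.20 ± 0.08 (adjusted p = 1.49e-16). The fall was late: the 24 h libraries had 1288, 1198 and 1079 CPM. No source used here gives the strand setting of the counting, and TNC overlaps the antisense gene DEC1. FAS, PLK1, CDKN2B, MCM7, FANCF, APEX1, LIG3, NTHL1, UCK2, KRT8, KRT18, VIL1, HSPD1 and ABCB1 also overlap genes on the other strand, so their reads may be shared.

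The other large falls were of genes at 3 to 35 CPM in untreated cells. GPAT2, a glycerol phosphate acyltransferase with an antisense neighbour (FAHD2CP), had 0.714 and 0.820 CPM at 48 h against 13.1, 13.6 and 13.2 CPM untreated, a log2 change of -4.10 ± 0.25 (adjusted p = 2.58e-11). LIX1 had 1.10 and 0.929 CPM against 15.1, 15.1 and 14.7 CPM. The metalloprotease ADAMTS18 had 4.78 and 3.55 CPM against 33.9, 34.2 and 34.3 CPM, and the transcription factor ST18 had 4.01 and 3.77 CPM against 33.3, 30.8 and 31.1 CPM. At 24 h ST18 was still near its untreated level, with 32.7 to 34.2 CPM. ADAMTS18 was already somewhat lower at 24 h, with 28.5 to 31.1 CPM, and most of its fall came later. MGAM2, MYRIP, AFF2, IGFBP5, HSD17B8, FOXP2 and CNTF made up the 12, with log2 changes between -3.39 and -2.61. These 12 were chosen among genes whose groups did not overlap, which was so for 12633 genes, 73% of those tested.

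**Figure D2:**
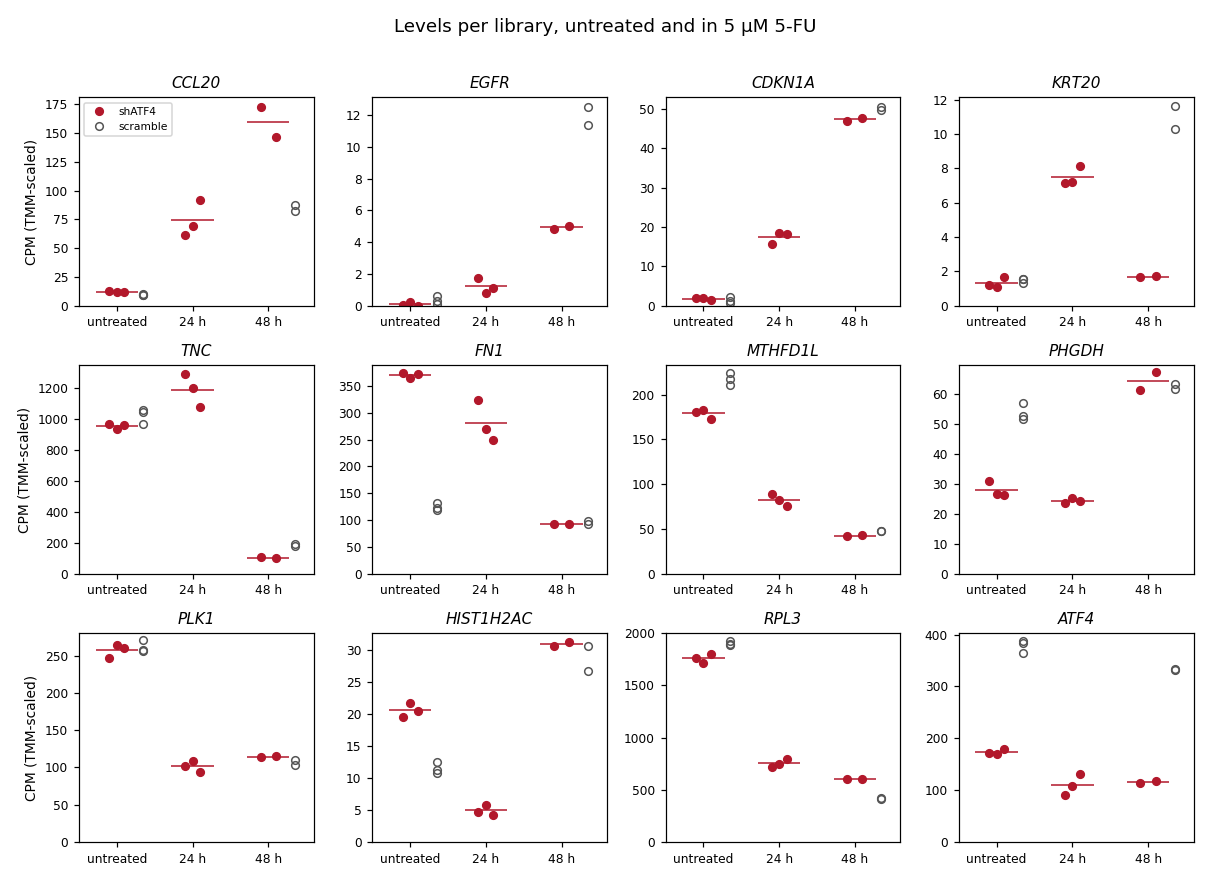
CPM per library for 12 genes in shATF4 cells (red, bars are means) untreated, at 24 h and at 48 h of 5 µM 5-FU, with the untreated and 48 h scramble libraries as open circles. CCL20, EGFR and CDKN1A climb, MTHFD1L and RPL3 decline, TNC drops between 24 h and 48 h, and KRT20 peaks at 24 h in shATF4 cells but stands at 11.6 and 10.3 CPM at 48 h in scramble cells.

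Of the genes that answer to DNA damage, CDKN1A moved furthest. It encodes p21, which stops cyclin-dependent kinases, and lies on chromosome 6. It had 47.0 and 47.8 CPM at 48 h against 2.05, 1.94 and 1.36 CPM untreated, a log2 change of 4.72 ± 0.19 (adjusted p = 3.99e-14). Of 23 p53 target genes tested 13 rose and 3 fell, with a median log2 change of 0.55 against 0.03 over all genes tested. The proapoptotic gene BBC3 (PUMA) rose by 2.48 ± 0.28, PMAIP1 (NOXA) by 1.83 ± 0.10, the death receptor FAS by 2.93 ± 0.29 and the secreted stress protein GDF15 by 2.18 ± 0.09. MDM2, the ubiquitin ligase of p53 and itself a classic p53 target, went the other way, with 45.01 and 40.6 CPM against 68.0, 66.7 and 62.8 CPM (log2 -0.62 ± 0.12). XPC and CCNG1 were the other 2 that fell, by 0.59 and 0.40.

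The cyclin-dependent kinase inhibitors changed in 4 of 7 members, a share near the 58.3% of all genes tested. All 4 rose, against 29.6% of all genes tested that were higher. CDKN2B (p15) was 1.55, CDKN2D 1.21 and CDKN2C 0.61 higher on the log2 scale, beside CDKN1A. Cyclins, their kinases and E2F factors split, with 9 higher and 8 lower of 21 and a median of -0.12, which upper-quartile scaling puts at 0.01. The S-phase activators E2F1, E2F2 and the repressor E2F8 were among the risers, at 0.95 ± 0.09, 1.45 ± 0.11 and 1.30 ± 0.09.

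Genes of G2 and mitosis fell in 20 of 34 and rose in 5, with a median of -0.27. PLK1, the kinase that drives mitotic entry and spindle assembly, had 113 and 115 CPM at 48 h against 248, 264 and 261 CPM untreated, a log2 change of -1.17 ± 0.08 (adjusted p = 8.58e-11). CDC20, which activates the anaphase ubiquitin ligase, fell by 0.88 ± 0.08, AURKA by 0.89 ± 0.08 and ECT2, which starts cytokinesis, by 0.82 ± 0.09. The 5 that rose were CDC25C, NUSAP1, KIF23, CENPA and CDK1, by 0.70, 0.47, 0.44, 0.39 and 0.34. Promoters of mitotic genes are known to carry the cell cycle homology region (searched as TTTGAA) near CCAAT boxes. Of 28 members with a promoter in the RefSeq table (GRCh38.p14), 17 held TTTGAA (60.7%) and 23 held CCAAT (82.1%) on either strand of the 250 bases before the start. Over the 11932 tested genes with a promoter these shares were 8.39% and 34.6%, and over all 27305 promoters of the table they were 13.6% and 33.0%. The 2 called members with the smallest p that hold both are shown because they carry the arrangement, with both motifs in capitals (PLK1 at chr16:23678639-23678888, plus strand; CDC20 at chr1:43358731-43358980, plus strand).
PLK1: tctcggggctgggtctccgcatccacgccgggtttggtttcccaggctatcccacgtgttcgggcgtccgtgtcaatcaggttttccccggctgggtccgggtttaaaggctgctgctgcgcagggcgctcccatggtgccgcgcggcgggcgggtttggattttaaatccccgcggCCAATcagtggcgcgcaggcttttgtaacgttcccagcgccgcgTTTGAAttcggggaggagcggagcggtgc
CDC20: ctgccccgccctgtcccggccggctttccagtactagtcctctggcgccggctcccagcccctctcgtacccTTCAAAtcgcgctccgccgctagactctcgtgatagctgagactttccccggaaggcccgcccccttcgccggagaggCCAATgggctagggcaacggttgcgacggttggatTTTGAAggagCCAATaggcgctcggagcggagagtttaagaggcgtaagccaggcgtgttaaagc

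DNA replication genes fell in 17 of 40 and rose in 5 (median -0.14). Upper-quartile scaling moved the median of all genes by 0.13, nearly the size of that list median. POLA1, a subunit of the primase polymerase, had 80.6 and 81.0 CPM at 48 h against 180, 173 and 164 CPM, while CDT1, which loads the helicase, had 149 and 160 CPM against 98.4, 100.2 and 104 CPM. The helicase subunit MCM7 fell by 0.53 ± 0.08 and POLD2 by 0.51 ± 0.07; GINS3, GINS4, RFC2 and ORC6 were the other risers. Recombination, Fanconi, mismatch repair and checkpoint genes fell in 12 of 33 and rose in 5, namely BRCA1 (0.76 ± 0.08), XRCC2 (0.75 ± 0.08), EXO1 (0.72 ± 0.09), CHEK2 (0.65) and CLSPN (0.29), and FANCF fell by 1.26 ± 0.11. Uracil and base excision repair enzymes, which act on uracil and 5-FU in DNA, fell in 7 of 16 and rose in 3 (NEIL1, MBD4 and SMUG1). The ligase LIG3 had 19.0 and 16.8 CPM against 52.6, 58.4 and 56.3 CPM, and APEX1, PARP1 and NTHL1 fell by 0.85, 0.39 and 1.46. The medians of both repair lists lay at -0.05 and -0.12, and upper-quartile scaling puts them at 0.08 and 0.00. In the replication list and both repair lists the share called was near the 58.3% of all genes tested. Of all genes tested 28.7% were lower and 29.6% higher.

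Clustered histone genes rose in 19 of 29 and fell in 1, HIST3H2A, with a median of 1.03. HIST1H3H, which encodes a core histone H3, had 6.31 and 8.80 CPM at 48 h against 1.09, 1.04 and 1.07 CPM untreated, a log2 change of 2.81 ± 0.32 (adjusted p = 2.21e-07). HIST1H4H rose by 2.32 ± 0.28, HIST1H2AG by 2.15 ± 0.20 and HIST1H2BJ by 1.26 ± 0.15. Replication-dependent histone mRNAs normally end in a stem-loop without a poly(A) tail, and these libraries were selected on poly-T beads, so the values describe the tailed fraction only. Many members are near-identical copies whose reads can be shared; 29 of the 71 listed passed the count filter.

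Enzymes that handle 5-FU were mixed, with 8 higher and 8 lower of 23. Both shares were near those of all genes tested, 29.6% higher and 28.7% lower. TYMS, thymidylate synthase and the main target of the drug, had 37.0 and 42.2 CPM at 48 h against 49.2, 49.7 and 51.4 CPM untreated (log2 -0.34 ± 0.08, adjusted p = 0.0018), and it overlaps antisense genes. UPP1, a uridine phosphorylase that can activate 5-FU, rose by 1.14 ± 0.08, GGH, which shortens folate chains, by 1.04 ± 0.08 and the ribonucleotide reductase subunit RRM2 by 0.98 ± 0.09, while the kinase UCK2 fell by 0.60 ± 0.09. DPYD, the enzyme that degrades 5-FU, was near the limit of detection with 1.10 and 0.546 CPM against 0.615, 0.830 and 0.429 CPM (log2 0.39 ± 0.45, adjusted p = 0.481).

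TNF and NF-kB target genes were called in all 24 tested, 22 higher and 2 lower, with a median of 1.83. NF-kB is a family of dimeric transcription factors held in the cytoplasm by IkB proteins until a signal such as TNF frees them. CCL20, a chemokine for lymphocytes and dendritic cells, had 173 and 147 CPM at 48 h against 12.6, 12.2 and 11.7 CPM untreated, a log2 change of 3.71 ± 0.14 (adjusted p = 2.14e-14). CXCL1, a neutrophil chemokine, had 87.6 and 73.4 CPM against 9.02, 11.6 and 9.80 CPM, and CXCL8 had 99.2 and 69.7 CPM against 10.7, 13.1 and 9.59 CPM. ICAM1, an adhesion molecule for leukocytes, rose by 3.58 ± 0.18 and NFKB2, which encodes the p52 precursor, by 2.07 ± 0.11. TNF itself was rare, at 1.54 and 1.80 CPM against 0.342, 0.277 and 0 CPM (log2 2.96 ± 0.59, adjusted p = 0.000199). The 2 that fell were the subunit genes REL (log2 -0.41) and NFKB1 (-0.22), both by little. CXCL1, CXCL2 and CXCL3 are close copies of each other and may share reads.

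A form of the NF-kB site, GGG and TTTCC with any 2 bases between them, was found on either strand of the 250 bases before the start in 10 of 21 NF-kB list members with a promoter, 47.6%. It was found in 1.94% of all tested genes with a promoter and in 1.73% of the table. Genes of this list are known for such sites, so the share describes the list and says nothing of binding in these cells. The promoters of the 2 called members with the smallest p that hold the consensus are shown with it in capitals (CCL20 at chr2:227813592-227813841 and CXCL1 at chr4:73869143-73869392, both plus strand, RefSeq on GRCh38.p14).
CCL20: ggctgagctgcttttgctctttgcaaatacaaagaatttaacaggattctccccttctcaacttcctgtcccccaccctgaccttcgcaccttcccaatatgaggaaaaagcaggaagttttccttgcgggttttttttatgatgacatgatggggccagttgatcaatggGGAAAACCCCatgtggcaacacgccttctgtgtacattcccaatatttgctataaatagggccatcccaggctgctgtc
CXCL1: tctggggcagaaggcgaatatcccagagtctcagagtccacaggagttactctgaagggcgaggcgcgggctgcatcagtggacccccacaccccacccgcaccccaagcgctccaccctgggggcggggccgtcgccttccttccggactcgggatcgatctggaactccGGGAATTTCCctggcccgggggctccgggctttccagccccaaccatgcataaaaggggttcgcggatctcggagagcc

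In both, the match starts 79 bases before the gene's start. Of 35 chemokine and cytokine genes listed 23 passed the count filter. Of these 20 rose, none fell, and the median was 2.47. IL32, a proinflammatory cytokine, rose by 2.85 ± 0.15. CCL2, CCL28 and TGFB2 were the 3 that were not called.

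Interferon-stimulated genes rose in 19 of 25, with none called lower and a median of 1.64. IFI6, an antiapoptotic protein of mitochondria, had 65.8 and 82.6 CPM at 48 h against 10.3, 11.6 and 13.0 CPM untreated (log2 2.67 ± 0.14, adjusted p = 2.28e-12). OAS3, which makes the activator of RNase L, had 132 and 147 CPM against 56.8, 54.0 and 57.4 CPM, and IRF7, which amplifies interferon transcription, had 27.7 and 36.1 CPM against 6.22, 7.19 and 7.16 CPM. IFITM3 rose by 2.05 ± 0.09, with close copies in IFITM1 and IFITM2 that may share its reads. The interferon response element, searched as GAAA and GAAA with any 2 bases between them, lay in 11 of 17 members with a promoter (64.7%), in 2.18% of all tested genes and in 3.07% of the table. IFI6 and OAS3, the 2 called members with the smallest p that hold it outside the IFITM genes, are shown with the matches in capitals (IFI6 at chr1:27672193-27672442, minus strand; OAS3 at chr12:112938224-112938473, plus strand).
IFI6: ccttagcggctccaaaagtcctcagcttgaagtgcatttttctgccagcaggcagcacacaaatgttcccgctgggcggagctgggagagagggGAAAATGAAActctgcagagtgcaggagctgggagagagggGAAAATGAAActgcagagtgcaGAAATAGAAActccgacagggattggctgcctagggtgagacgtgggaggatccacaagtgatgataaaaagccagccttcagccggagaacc
OAS3: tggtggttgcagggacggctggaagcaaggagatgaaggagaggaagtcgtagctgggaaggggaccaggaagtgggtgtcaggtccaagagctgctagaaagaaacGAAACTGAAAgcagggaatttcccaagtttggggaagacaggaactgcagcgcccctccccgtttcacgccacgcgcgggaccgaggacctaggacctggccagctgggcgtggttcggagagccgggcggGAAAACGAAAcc

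IFI6 holds 3 such matches and OAS3 holds 2. MHC class I antigen presentation genes, which load peptides for display to T cells, rose in 12 of 15 with a median of 0.92. HLA-B had 95.01 and 103 CPM at 48 h against 10.8, 10.4 and 10.8 CPM, HLA-E rose by 2.14 ± 0.10 and HLA-C by 0.79 ± 0.07. Reads of these genes can be shared between them and depend on the alleles of the line. The immunoproteasome subunits PSMB9 and PSMB8 rose by 3.26 ± 0.22 and 1.33 ± 0.12, with antisense neighbours that may share reads.

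Death receptors, their ligands and caspases rose in 15 of 19, and 1, the adaptor FADD, fell by 0.30. CASP10 had 3.46 and 2.13 CPM at 48 h against 0.273, 0.277 and 0.358 CPM untreated, TNFRSF1A, the TNF receptor, rose by 0.83 ± 0.08 and the decoy receptor TNFRSF10D by 0.80 ± 0.09. Of the BCL2 family 9 of 14 rose, and BCL2L2 and MCL1, both survival genes, fell by 0.34 and 0.21. The risers included killers and protectors: BOK rose by 2.90 ± 0.28, BMF by 2.66 ± 0.25 and the survival gene BCL2L1 by 0.49 ± 0.06.

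Ligands and receptors of the EGFR family rose in 8 of 10, and ERBB3 (log2 -0.31) and ADAM17 (-0.46), the sheddase of the ligands, fell. AREG, an EGFR ligand, had 19.4 and 16.8 CPM at 48 h against 1.78, 1.87 and 2.004 CPM untreated (log2 3.26 ± 0.14). EREG and HBEGF, further ligands, rose by 2.37 ± 0.17 and 1.90 ± 0.14, and ERRFI1, a feedback inhibitor of the receptor, by 1.13 ± 0.09. AP-1 and immediate early genes rose in 13 of 16 with a median of 1.31, while JUN (-0.38) and SRF (-0.32) fell. FOS had 19.2 and 23.2 CPM against 3.07, 2.49 and 2.15 CPM, EGR3 rose by 2.75 ± 0.19, MAFF by 2.46 ± 0.12 and JUNB by 1.81 ± 0.11. Dual-specificity MAP kinase phosphatases, which switch off ERK, p38 and JNK, rose in 9 of 11. DUSP5 had 58.8 and 62.3 CPM against 4.64, 4.84 and 4.37 CPM, and DUSP6 had 125 and 113 CPM against 61.4, 61.8 and 60.3 CPM.

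The AP-1 consensus TGANTCA was found in the 250 bases before the start of 145 of 1861 genes called at least 2-fold higher that have a promoter in the table, 7.79%. Genes called at least 2-fold lower held it in 18 of 542, 3.32%, and all tested genes in 4.25%. Over all 27305 promoters of the table the share was 6.60%, not far below that of the risers. This is a description of sequence only, and the groups also differ in level. None of 14 AP-1 list members with a promoter held it in this window.

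Of 17 listed genes of matrix proteases and the plasminogen activator system 11 passed the count filter. All 11 rose, each at least 2-fold, with a median of 1.29. Among those not tested, MMP1 had 0 counts at 48 h and MMP13 had 13. A gene rare without drug can pass the filter through its treated libraries, so the share describes the tested members only. PLAU, which encodes urokinase, had 48.8 and 52.0 CPM at 48 h against 4.85, 5.39 and 4.79 CPM untreated (log2 3.33 ± 0.12, adjusted p = 8.46e-15). Its receptor PLAUR rose by 2.65 ± 0.15, the membrane protease MMP14 by 2.17 ± 0.14 and the inhibitor TIMP3 by 3.89 ± 0.16. The list holds proteases and their inhibitors, and both kinds rose.

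Mesenchymal and invasion genes rose in 9 of 14, and FN1 and TNC fell. FN1 (chromosome 2, 215360440 to 215436172, minus strand, GRCh38), the gene of fibronectin, had 93.5 and 93.6 CPM at 48 h against 374, 365 and 373 CPM untreated, a log2 change of -1.99 ± 0.09 (adjusted p = 4.66e-13). The laminin chains LAMA3 and LAMB3 rose by 2.71 ± 0.08 and 0.56 ± 0.08. Both the mesenchymal filament gene VIM and the epithelial cadherin gene CDH1 rose, by 0.53 ± 0.09 and 0.29 ± 0.07. The fibroblast markers COL1A1, LUM, PDGFRB and THY1 rose in the same libraries, by 0.80, 0.54, 2.30 and 2.57, with COL3A1 and DCN at 0; their part in these values was not tested.

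Of 17 keratins 8 rose, 4 fell and 5 were not called. The simple epithelial keratins KRT8, KRT18 and KRT19 fell by 0.81 ± 0.08, 0.81 ± 0.06 and 0.82 ± 0.08, and KRT7 by 0.45 ± 0.14, a call lost with upper-quartile scaling (-0.32, adjusted p = 0.0550). Among 8 that rose, KRT6B, a keratin of stressed epidermis, had 7.63 and 7.81 CPM at 48 h against 0.068, 0.415 and 0.143 CPM untreated, and KRT17 had 16.5 and 17.2 CPM against 1.64, 1.73 and 1.15 CPM. KRT23 and KRT81 rose by 1.55 ± 0.10 and 1.66 ± 0.13. KRT20, a marker of differentiated colon epithelium (chromosome 17), was not called, with 1.65 and 1.75 CPM against 1.23, 1.11 and 1.65 CPM (log2 0.36 ± 0.26, adjusted p = 0.242). KRT7, KRT81 and KRT86 overlap each other and may share reads.

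Of 32 mucin, CEACAM and colon differentiation genes listed 22 passed the count filter. Of these 15 rose and only VIL1, an actin bundler of microvilli, fell, by 1.04 ± 0.07. MUC13, a membrane mucin, had 188 and 194 CPM at 48 h against 46.0, 45.3 and 47.5 CPM, and CEACAM1 had 23.5 and 23.4 CPM against 6.63, 8.16 and 7.87 CPM. CDX2, the transcription factor of intestinal identity, had 34.8 and 35.6 CPM against 14.6, 15.2 and 13.0 CPM. TFF2 and MUC5AC, products of gastric mucous cells, rose by 1.74 ± 0.16 and 1.26 ± 0.23. Of 15 kallikrein proteases listed, encoded in a cluster on chromosome 19, 10 passed the count filter and 7 of these rose. The median was 3.25, or 3.11 with KLK13, which had no untreated count, set at its bound. KLK10 had 17.5 and 19.5 CPM against 0.546, 1.11 and 0.644 CPM, KLK6 rose by 1.55 ± 0.10 and KLK11 by 3.65 ± 0.56, and KLK5 had 46 counts against 1.

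Of 22 epidermal barrier genes listed only 11 passed the count filter. IVL, SPRR2A and CRCT1, which did not, had no count in any library, and other SPRR genes had few. Of the 11 tested 7 rose and SPINK5 fell by 0.94. The median of 1.42 is the same with PI3 at its bound. PI3 (elafin), a protease inhibitor like SLPI, had 39 counts at 48 h against 0 untreated, at least 15.3-fold higher against 3 counts over the untreated group. GRHL3 and S100A14 rose by 2.41 ± 0.40 and 0.90 ± 0.20. Claudin and tight junction genes rose in 8 of 16, and 2 fell, CLDN12 by 0.52. CLDN1, CLDN7 and CLDN23, which seal the gap between epithelial cells, and MARVELD3 rose by 0.56 ± 0.08, 1.66 ± 0.29, 1.604 ± 0.27 and 0.90 ± 0.10.

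**Figure D3:**
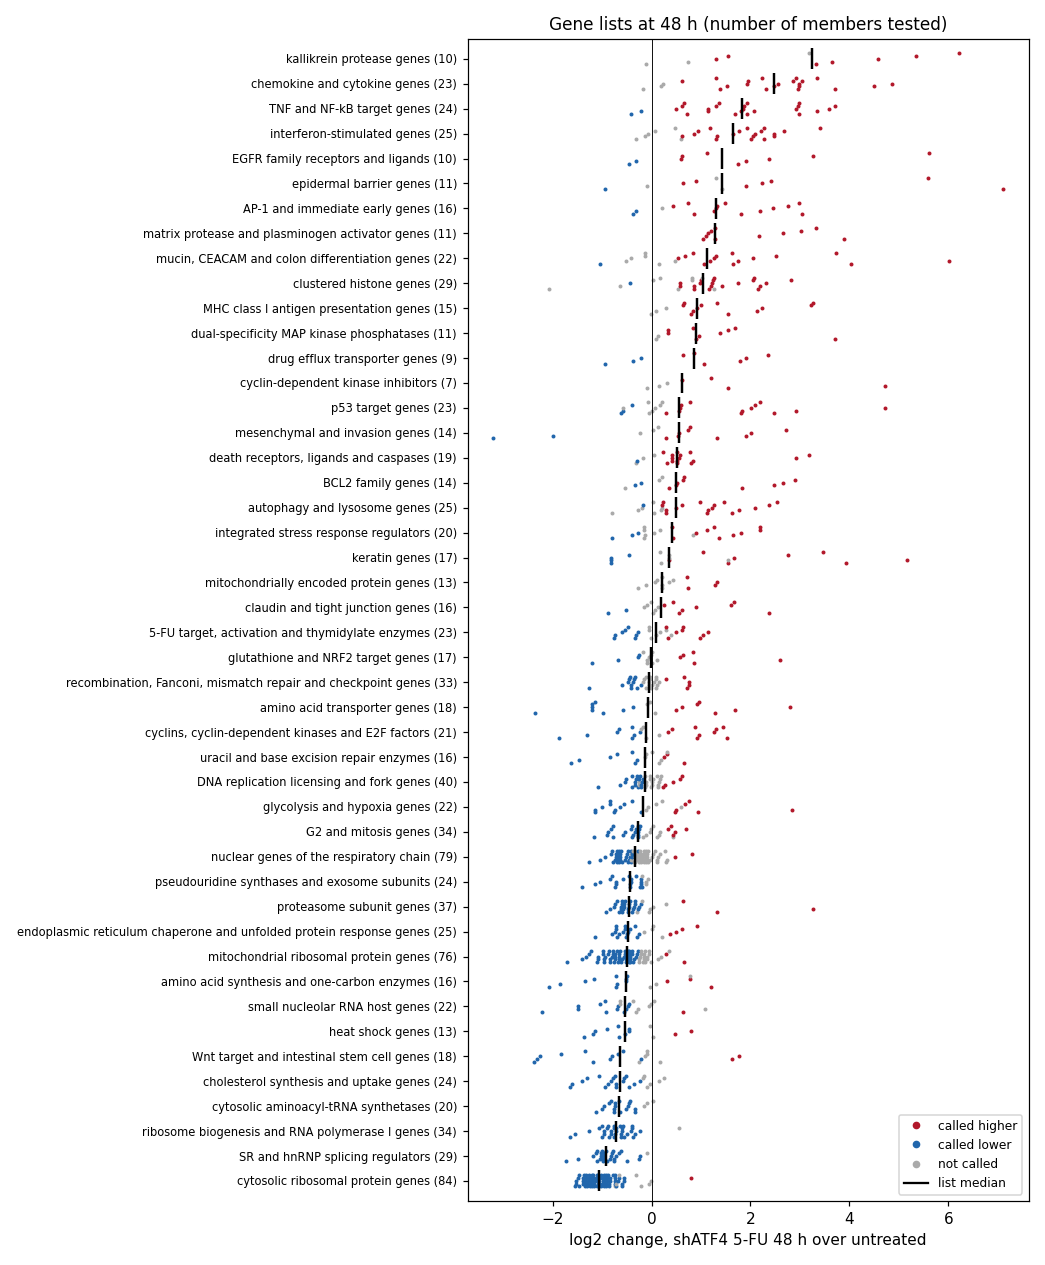
Log2 change (shATF4 5-FU 48 h over untreated) of each tested member of 46 gene lists, ordered by the list median (black bar), with members called higher in red, lower in blue and not called in grey. Kallikreins, cytokines and NF-kB targets lie at the top, and splicing regulators and ribosomal protein genes at the bottom with a median of -1.06.

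Integrated stress response regulators rose in 10 of 20 and fell in 3, namely STC2 (-0.81), PPP1R15B (-0.40) and TRIB3 (-0.27), with a median of 0.42. ATF3 had 7.85 and 8.47 CPM at 48 h against 2.32, 1.52 and 1.503 CPM untreated, and CHAC1, which degrades glutathione, had 11.2 and 12.3 CPM against 4.64, 4.15 and 5.01 CPM. SESN2, which restrains mTORC1, rose by 1.81 ± 0.16. PPP1R15A (GADD34), the phosphatase subunit that reverses eIF2 phosphorylation, had 76.1 and 79.7 CPM against 32.6, 30.8 and 33.7 CPM. DDIT3 (CHOP) rose little, to 9.94 and 11.3 CPM against 8.54, 8.02 and 7.37 CPM (log2 0.41 ± 0.15, adjusted p = 0.025), and it overlaps antisense genes. Its call was lost without shATF4 48 h replicate 2 (adjusted p = 0.198) and without untreated replicates 2 and 3 (0.0502 and 0.0803), and with no filter on low counts (0.0780). EIF2AK3, the gene of PERK, and DDIT4 were not called, at log2 0.06 ± 0.14 and 0.17 ± 0.22.

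Of 16 enzymes that make amino acids or carry one-carbon units 10 fell. MTHFD1L, a mitochondrial folate enzyme, had 41.7 and 43.2 CPM at 48 h against 181, 183 and 173 CPM untreated, a log2 change of -2.08 ± 0.08 (adjusted p = 3.95e-14). PYCR1, the last enzyme of proline synthesis, fell by 1.84 ± 0.10 and SHMT2 by 1.17 ± 0.07. The 3 that rose were PHGDH, the first enzyme of serine synthesis, with 61.3 and 67.3 CPM against 30.9, 26.6 and 26.3 CPM, SHMT1 (0.32 ± 0.08) and CTH (0.77). ASNS, asparagine synthetase, was near the limit of detection at 0.823 and 1.09 CPM against 0.820, 1.31 and 0.787 CPM and was not called. MTHFD1L is the called member of this list that holds the ATF4 element, searched as TGATGNAA, in the 250 bases before its start (chr6:150866236-150866485, plus strand); 3 of 11 members with a promoter held it (27.3%), against 1.41% of all tested genes and 3.19% of the table.
MTHFD1L: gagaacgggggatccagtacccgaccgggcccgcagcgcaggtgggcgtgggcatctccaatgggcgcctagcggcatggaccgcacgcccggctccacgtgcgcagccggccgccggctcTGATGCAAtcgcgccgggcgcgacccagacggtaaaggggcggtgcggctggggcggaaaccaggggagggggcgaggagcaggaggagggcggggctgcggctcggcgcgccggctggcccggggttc

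The match is in capitals, and ASNS and GOT1 are the other members that hold one. Neither of these was called at 48 h.

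Cytosolic aminoacyl-tRNA synthetases fell in 17 of 20 and none rose (median -0.65). IARS fell by 0.995 ± 0.07, GARS by 0.96 ± 0.08 and KARS by 0.73 ± 0.07. Amino acid transporters were divided, with 7 higher and 8 lower of 18 and a median of -0.06 that upper-quartile scaling puts at 0.06. The leucine carrier SLC7A5 had 326 and 363 CPM at 48 h against 754, 795 and 827 CPM, while its partner chain SLC3A2 had 878 and 964 CPM against 471, 476 and 484 CPM. The cystine carrier SLC7A11 fell by 1.20 ± 0.17, SLC7A1 by 0.99 ± 0.08 and SLC38A1 by 1.21 ± 0.08.

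Endoplasmic reticulum chaperones and unfolded protein response genes fell in 17 of 25 with a median of -0.49. HSPA5 (BiP), the main chaperone of that compartment, had 409 and 412 CPM at 48 h against 922, 891 and 912 CPM (log2 -1.15 ± 0.06), and HSP90B1, PDIA4 and PDIA6 fell by 0.79, 0.71 and 0.72. DNAJB9, ERN1, HERPUD1 and SYVN1 were the 4 that rose, by 0.92, 0.61, 0.49 and 0.38. Heat shock genes fell in 9 of 13, led by HSP90AB1 (-1.36 ± 0.06), HSPD1 (-1.18 ± 0.07) and HSPA8 (-1.15 ± 0.09), and BAG3 and HSPA1A rose by 0.80 and 0.47.

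Of 84 cytosolic ribosomal protein genes 76 fell and 1, RPS27L, a p53-responsive paralogue of RPS27, rose by 0.79. The median of the list was -1.06. RPL3 had 602 and 603 CPM at 48 h against 1765, 1717 and 1804 CPM untreated, a log2 change of -1.55 ± 0.06 (adjusted p = 4.98e-14), and RPL13A and RPL4 fell by 1.52 and 1.31. Ribosomal protein genes have many pseudogene copies that may share their reads. Ribosome biogenesis and RNA polymerase I genes fell in 33 of 34 (median -0.73), with the nucleolar proteins NPM1 (-1.54 ± 0.09) and NCL (-1.07 ± 0.08) and the processome subunit UTP20 (-1.65 ± 0.12); NOP2, at 0.56, was not called.

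Small nucleolar RNA host genes fell in 12 of 22, with SNHG5 at 56.9 and 48.5 CPM against 247, 241 and 243 CPM and GAS5 at 68.6 and 63.6 CPM against 185, 189 and 178 CPM; SNHG20 rose by 0.63. Pseudouridine synthases and exosome subunits, which modify and degrade RNA and include reported targets of 5-FU, fell in 20 of 24 and none rose. RPUSD4, PUS7L and EXOSC8 fell by 1.40 ± 0.10, 1.14 ± 0.13 and 1.05 ± 0.12. SR and hnRNP splicing regulators fell in 28 of 29 (median -0.93): HNRNPA1 had 742 and 690 CPM against 2431, 2338 and 2373 CPM, and SRSF1 fell by 1.49 ± 0.10. SRSF5, at -0.08, was the member not called.

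Of 13 mitochondrially encoded protein genes 4 rose, a share near the 29.6% of all tested genes, and 9 were not called, with MT-ND1 at 711 and 805 CPM at 48 h against 323, 311 and 300 CPM untreated and MT-ND6 1.31 ± 0.17 higher (log2). Mitochondrial rRNA took 0.918% and 0.955% of counts at 48 h, against 0.392%, 0.383% and 0.365% untreated. Nuclear genes of the respiratory chain fell in 34 of 79 and rose in 2, NDUFC2 and NDUFA13 (median -0.33), and mitochondrial ribosomal protein genes fell in 55 of 76 and rose in 2, MRPS6 and MRPL41 (median -0.50), the call of MRPS6 being lost without 48 h replicate 1 (0.28, adjusted p = 0.0554). ATP5F1B, a subunit of ATP synthase, had 1029 and 1104 CPM against 1787, 1738 and 1782 CPM.

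Proteasome subunit genes fell in 28 of 37 (median -0.45), and the 3 that rose were the immunoproteasome genes PSMB8 and PSMB9 and PSMA6. Cholesterol synthesis and uptake genes fell in 18 of 24 with none higher: INSIG1, which restrains sterol synthesis, and HMGCS1, an early enzyme of the pathway, fell by 1.66 ± 0.13 and 1.40 ± 0.11. Glycolysis and hypoxia genes fell in 11 of 22 and rose in 6. LDHA had 747 and 733 CPM against 1682, 1603 and 1604 CPM, HK2 and ENO1 fell by 1.14 ± 0.07 and 0.83 ± 0.06, and NDRG1 rose by 2.83 ± 0.18.

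Wnt target and intestinal stem cell genes fell in 11 of 18, and LEF1 and CD44 rose, by 1.76 and 1.63. NKD1, a feedback inhibitor of Wnt signalling, had 1073 and 1124 CPM at 48 h against 3952, 3801 and 3939 CPM untreated, a log2 change of -1.83 ± 0.07 (adjusted p = 4.07e-14). NOTUM, which inactivates Wnt ligands, had 222 and 249 CPM against 1003, 1152 and 1227 CPM, and SMOC2 and EPHB2 fell by 2.38 ± 0.09 and 1.35 ± 0.07. MYC fell little, by 0.21 ± 0.07, a call lost without 48 h replicate 1 (-0.19, adjusted p = 0.0834) and with upper-quartile scaling (-0.08).

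Drug efflux transporters rose in 6 of 9, with ABCB1, the P-glycoprotein gene, at 53.02 and 49.0 CPM at 48 h against 12.6, 13.8 and 14.4 CPM (log2 1.91 ± 0.12). ABCC3 and ABCC5 rose by 1.06 ± 0.10 and 0.85 ± 0.10, and ABCC4, ABCC1 and ABCC2 fell by 0.95, 0.37 and 0.22. Autophagy and lysosome genes rose in 17 of 25 (median 0.49), and LAMP1 fell by 0.18. CTSB, the protease cathepsin B, had 469 and 500 CPM against 157, 156 and 159 CPM, and the autophagy receptor OPTN rose by 2.08 ± 0.08, MAP1LC3B by 1.27 ± 0.07 and GABARAPL1 by 2.38 ± 0.20. Glutathione and NRF2 target genes changed in 9 of 17, a share near the 58.3% of all genes tested. Their median of -0.01 reads 0.02 with median-of-ratios and 0.12 with upper-quartile scaling. HMOX1 (2.59 ± 0.24), NQO1 (0.64 ± 0.08), AKR1C1, AKR1C2 and OSGIN1 rose, and SLC7A11, GSR (-0.68 ± 0.08), TXNRD1 and GPX4 (-0.26 ± 0.07) fell, with the call of GPX4 lost under upper-quartile scaling (-0.13, adjusted p = 0.114).

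The 24 h and 48 h comparisons share the untreated libraries, and each is given beside the other. At 24 h 7687 genes were called against untreated cells (44.4%), 4018 higher (23.2%) and 3669 lower (21.2%). Between 24 h and 48 h 8349 were called (48.2%), 4101 higher at 48 h (23.7%) and 4248 lower (24.5%). Clustered histone genes had a median of -1.40 at 24 h and of 1.03 at 48 h, both over untreated, and 26 of 29 were higher at 48 h than at 24 h. HIST1H2AC had 20.6 CPM untreated, 4.91 at 24 h and 31.0 at 48 h as group means. G2 and mitosis genes fell in 22 of 34 at 24 h with none higher, and 19 were higher at 48 h than at 24 h. Keratins rose in 13 of 17 at 24 h (median 1.18), and 10 were lower at 48 h than at 24 h. KRT20 was one of these, with 1.23, 1.11 and 1.65 CPM untreated, 7.17, 7.19 and 8.15 CPM at 24 h and 1.65 and 1.75 CPM at 48 h (log2 -2.14, 48 h over 24 h).

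Several other groups also differed between 24 h and 48 h. Nuclear respiratory chain genes rose in 20 and fell in 11 of 79 at 24 h, and 58 were lower at 48 h than at 24 h. Proteasome genes rose in 10 and fell in 2 of 37 at 24 h, and 28 were lower at 48 h than at 24 h. For both lists the share that rose at 24 h was near the 23.2% of all genes tested. Over all genes tested 24.5% were lower at 48 h than at 24 h. DNA replication genes rose in 20 and fell in 8 of 40 at 24 h, and 17 were lower at 48 h than at 24 h. Ribosomal protein genes fell in 38 of 84 at 24 h, and 76 were lower at 48 h than at 24 h; shATF4 24 h replicate 3, where they took 6.48% of counts against 4.39% and 5.00% in the other 2, is in that comparison. Among interferon-stimulated genes 16 of 25 were higher at 48 h than at 24 h.

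By single genes, the largest rises from 24 h to 48 h were of SPTSSB, IQGAP2, PLIN5, PIM1 and CLU. PIM1, a survival kinase, had 0.205, 0.761 and 0.787 CPM untreated, 0.936, 1.18 and 0.757 CPM at 24 h and 16.2 and 13.8 CPM at 48 h (log2 3.98 ± 0.26, 48 h over 24 h). CLU, the secreted chaperone clusterin, had 2.87, 2.14 and 3.01 CPM untreated, 4.18, 4.29 and 3.84 CPM at 24 h and 56.4 and 57.6 CPM at 48 h (log2 3.80 ± 0.12). The largest falls were of TNC, GPAT2, ST18, ADAMTS18 and KRT13, and KRT13 had 0.165 and 0.273 CPM at 48 h against 1.19, 1.66 and 1.80 CPM at 24 h.

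**Figure D4:**
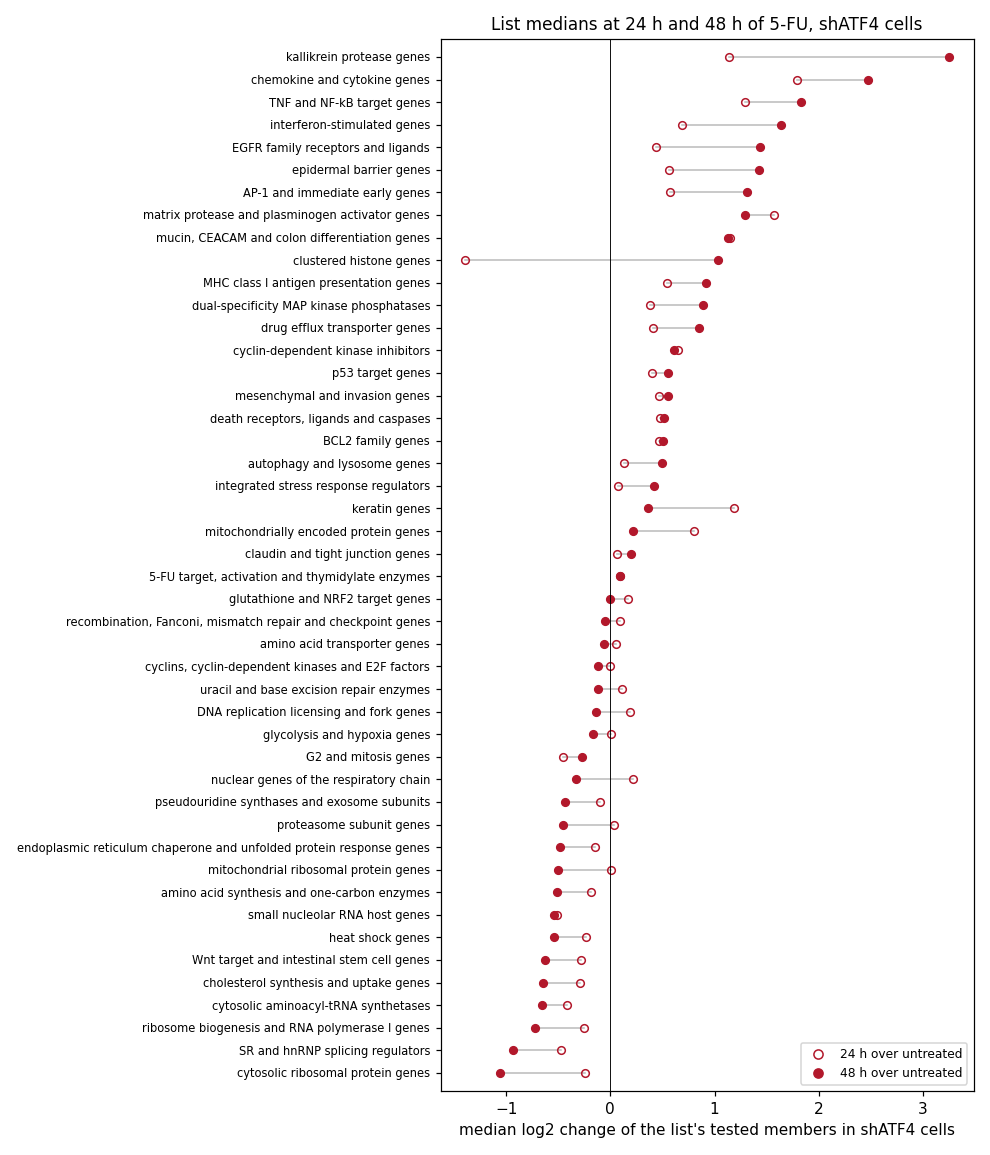
Median log2 change of each of 46 gene lists in shATF4 cells at 24 h (open) and 48 h (filled) of 5-FU, both over the same untreated libraries. Histone genes lie at -1.40 at 24 h and at 1.03 at 48 h, keratins lie lower at 48 h, and the proteasome, respiratory chain and mitochondrial ribosome lists lie below zero only at 48 h.

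The scramble line was treated in the same way and shares no library with the shATF4 comparison. At 48 h 10501 genes were called in it (60.7%). Across the 17309 genes the log2 changes of shATF4 and scramble cells correlated with r = 0.861 and a slope of 0.80, a description over genes, which are not independent replicates. Of all calls 8474 were shared, 83.9% of the shATF4 calls and 80.7% of the scramble calls, and 8435 of these had the same direction.

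A test of the difference between the responses called 475 genes (2.74%), 225 with a higher (1.3%) and 250 with a lower (1.44%) response in shATF4 cells. Of these, 28 differed at least 2-fold upward (0.162% of genes tested) and 99 downward (0.572%). In 243 the response was in the same direction but smaller in shATF4 cells, and in 107 it was larger; in the other 125 the fitted changes of the 2 lines had opposite signs. The count rests on few libraries: it lay between 136 and 487 when each of the 10 libraries was left out in turn, and at 178 and 260 without shATF4 48 h replicates 2 and 1, at 265 without shATF4 untreated replicate 2, at 136 and 173 without scramble 48 h replicates 2 and 1, and at 267 without scramble untreated replicate 1. Leaving out the 2 libraries that stand apart gave 1204.

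**Figure D5:**
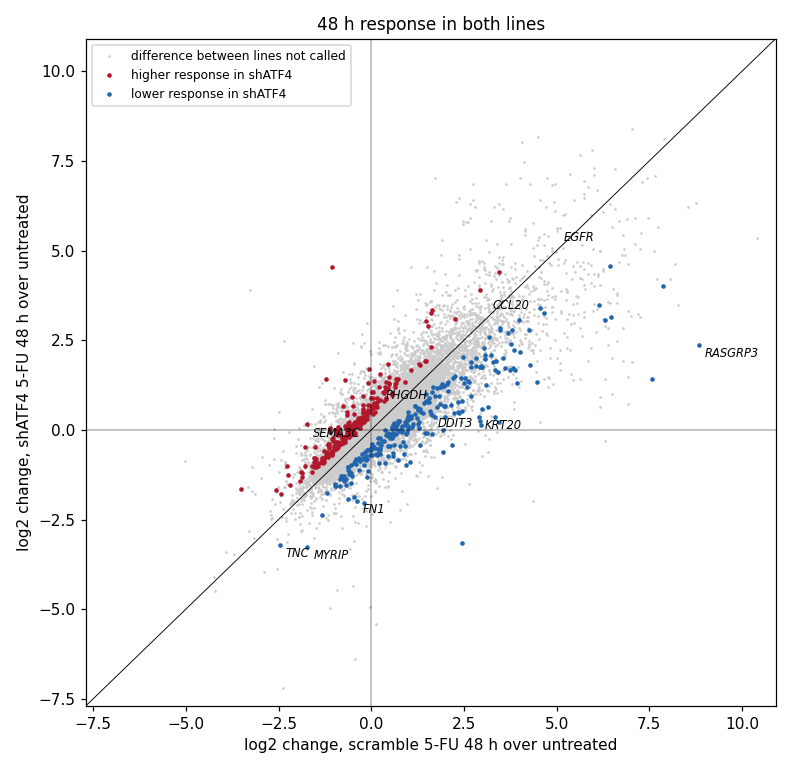
Log2 change at 48 h of 5-FU over untreated in shATF4 cells against that in scramble cells, 1 point a gene, with genes whose response differed between the lines in red (higher in shATF4) and blue (lower) and the line of equal change. Most genes lie along the line (r = 0.861), while KRT20 and DDIT3 lie low and PHGDH lies high.

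Matrix and keratin genes were among those whose response differed. Of 14 mesenchymal and invasion genes 8 had a lower response in shATF4 cells, against 1.44% of all genes. The untreated level of FN1 differed between the lines: it had 93.5 and 93.6 CPM at 48 h against 374, 365 and 373 CPM untreated in shATF4 cells, and 92.0 and 99.2 CPM at 48 h against 120, 132 and 123 CPM untreated in scramble cells (difference -1.601 ± 0.12, adjusted p = 4.82e-07). LAMA3 rose by 2.71 in shATF4 cells and by 3.68 in scramble cells. Of 17 keratins 7 had a lower response. KRT20 had a log2 change of 0.36 in shATF4 cells, where it was not called, and of 2.89 in scramble cells, with 11.6 and 10.3 CPM at 48 h against 1.54, 1.33 and 1.54 CPM untreated (difference -2.54, called). KRT81 rose by 1.66 in shATF4 cells and by 3.87 in scramble cells.

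Single genes with the largest differences downward were RASGRP3, CYP11A1, SCEL, AC004233.2, F13A1 and SCG2. SCG2, a granin of secretory vesicles, had 9.22 and 8.58 CPM at 48 h against 8.54, 7.26 and 8.30 CPM untreated in shATF4 cells, and 53.2 and 55.3 CPM against 8.42, 5.90 and 6.56 CPM in scramble cells. SCEL, a protein of the cornified envelope, had 2.85 and 3.11 CPM at 48 h in shATF4 cells and 18.1 and 18.6 CPM in scramble cells, from under 1 CPM in both. The call of SCEL was lost without any 1 of 7 libraries, and its difference was -1.58 without shATF4 untreated replicate 1 (adjusted p = 0.569). RASGRP3 had no count in the 3 untreated scramble libraries, so its fitted difference is no bound. Leaving out 1 library lost the calls of CYP11A1 in 5 cases, AC004233.2 in 6 and RASGRP3 in 2. AREG rose in both lines, by 3.26 in shATF4 cells and by 4.66 in scramble cells (difference -1.40, called).

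Stress genes linked to ATF4 differed both ways. DDIT3 rose by 0.41 in shATF4 cells and by 1.63 in scramble cells, where it had 18.3 and 18.7 CPM at 48 h against 6.15, 6.47 and 5.29 CPM untreated (difference -1.22, called). PPP1R15A rose by 1.27 in shATF4 cells and by 1.91 in scramble cells (difference -0.65). PHGDH rose by 1.20 in shATF4 cells and by 0.22 in scramble cells, where it had 61.7 and 63.2 CPM at 48 h against 52.6, 56.9 and 51.4 CPM; the 48 h levels of the lines lay within 61.3 to 67.3 CPM. RPL3 fell by 1.55 in shATF4 cells and by 2.20 in scramble cells (difference 0.65). CHAC1, SESN2, ATF3 and TNF showed no called difference, at -0.13, 0.36, 0.04 and -0.36, which does not show that the responses were alike.

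Upward differences were led by BOLA2B, SEMA3C, CHODL, DUSP9, SELENOM and TMEM159. BOLA2B rests on 1 library, with 27.2 and 0.328 CPM in the 2 treated shATF4 libraries, and it has a near-identical copy, so its value is uncertain. Its difference was 0.26 without shATF4 48 h replicate 1 (adjusted p = 0.956), and the call of DUSP9 was lost in 10 of 18 alternatives, of TMEM159 in 8 and of CHODL in 2. SEMA3C, a guidance cue, had 3.68 and 1.69 CPM at 48 h against 1.84, 2.97 and 2.43 CPM untreated in shATF4 cells. It fell by 1.73 in scramble cells. The difference was 1.22 without shATF4 48 h replicate 1, and 1.97 and 1.80 without scramble 48 h replicates 1 and 2. Its call was lost in each of these cases. SELENOM, a selenoprotein of the endoplasmic reticulum, rose by 3.35 in shATF4 cells and by 1.63 in scramble cells. CLU rose by 4.41 in shATF4 cells and by 3.45 in scramble cells (difference 0.97, called), though leaving out any 1 of 6 libraries put its adjusted p between 0.0518 and 0.0820.

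The authors' deposited table gives its own log2 change for this comparison. Of the genes in the authors' deposited table, 8886 had an adjusted p under 0.05, 4242 higher and 4644 lower. All 10097 genes called here had the same direction there, and 8617 of them were also under 0.05 in the authors' deposited table.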

How the data were processed

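Poly(A)-selected RNA of SW620 cells was sequenced, per the labels' protocols. The authors deposited a table of raw read counts per gene, counted with featureCounts 1.5.0-p3 on GRCh38, per the submitters' processing notes; the aligner, annotation release and strand setting are named in none of the sources used here. The same deposited table holds 16 FPKM columns, which were not used. It also holds the authors' own log2 fold changes and adjusted p-values of the comparison, used only for the values credited to the authors' deposited table.

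Counts of 58735 genes were filtered with filterByExpr, scaled by TMM and fitted in edgeR 4.0.16 (R 4.3.3, limma 3.58.1) in 1 model of all 16 libraries with 6 groups, which leaves 10 residual degrees of freedom. Calls used the quasi-likelihood test with Benjamini-Hochberg adjustment over 17309 genes. The standard error is the log2 change divided by the root of F. The fit was tested on simulated data in which few genes changed, equally up and down. That setting does not cover a response as broad and lopsided as this one. CPM use TMM library sizes. Count ratios carry 95% exact binomial intervals that cover counting error only.

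Named genes were ATF4, the 12 largest rises and 12 largest falls among called genes averaging 1 CPM or more without overlap, the 6 and 6 largest differences between lines, the 5 and 5 largest between times, up to 4 called members of each list by p, list members that differed between lines, and a set always described. Members and lists were chosen with earlier results of these data known. Alternatives changed scaling, filter, tool (DESeq2 1.42.0), libraries in the fit and the replicate block, and left out single libraries. Some genes are not reported here.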

Additional observations from a re-analysis of the deposited data

Results flagged for a closer look

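The 48 h response differed between shATF4 and scramble cells, by the test of the difference itself (edgeR's quasi-likelihood test, adjusted p under 0.05), in 475 genes. Among the genes described by name, 68 passed this test, and each is given as shATF4 minus scramble in log2 change. RASGRP3 rests on untreated scramble libraries with no count and BOLA2B on 1 treated shATF4 library, so neither value is a size of effect.

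The response was lower in shATF4 cells than in scramble cells, by these log2 differences, for RASGRP3 (-6.47), CYP11A1 (-3.33), SCEL (-3.23), AC004233.2 (-3.14), F13A1 (-2.99), SCG2 (-2.82), KLK3 (-2.64), KRT20 (-2.54) and KRT81 (-2.21). It was also lower for KLK10 (-1.87), MUC5AC (-1.83), KLK1 (-1.75), KRT5 (-1.64), FN1 (-1.60), MYRIP (-1.54), CEACAM6 (-1.48), AREG (-1.40) and KRT86 (-1.36). Lower responses further included KRT7 (-1.24), DDIT3 (-1.22), TFF2 (-1.19), ITGB6 (-1.18), KRT80 (-1.09), SLC6A9 (-1.06), LAMA3 (-0.97), SNHG8 (-0.95) and SNHG1 (-0.86). To these were added TNC (-0.73), HIST1H2AC (-0.73), LAMB3 (-0.72), TNFRSF10D (-0.71), CDH1 (-0.69), MRPS6 (-0.67) and PPP1R15A (-0.65). Smaller negative differences were those of KLF5 (-0.55), BCL2L1 (-0.51), SLC2A1 (-0.46), MUC13 (-0.42) and KRT19 (-0.40). 

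A higher response in shATF4 cells was found for BOLA2B (5.61), SEMA3C (1.88), CHODL (1.87), DUSP9 (1.74), SELENOM (1.72), TMEM159 (1.64), EGLN3 (1.04), PHGDH (0.98) and CLU (0.97). Higher responses were also those of CDX2 (0.83), PFKL (0.77), RPL10A (0.66), RPL3 (0.65), MRPL16 (0.64), NFKBIE (0.64), GPX4 (0.54) and GPX2 (0.53). Further positive differences were those of PFKP (0.53), NQO1 (0.50), UQCRC2 (0.49), SHMT1 (0.47), HLA-C (0.45), SHMT2 (0.44), VIL1 (0.44), ATP5MC2 (0.44) and LSS (0.44). The smallest positive ones were of DUSP6 (0.41), QARS (0.40) and PDIA4 (0.35). 

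A lower difference covers genes that rose less or fell more in shATF4 cells and genes whose changes had opposite signs in the 2 lines. Scramble untreated replicate 2, which stands apart in its mitochondrial share, enters all of these differences, and 443 genes were called without it. Of the 68 named genes 27 were called in every one of 18 alternatives and 41 were lost in some.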

How the results depend on the processing

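For shATF4 48 h against untreated, called genes numbered 8485 to 10906 under all 13 alternatives, 8485 to 9461 of that range when 1 library was left out, and 9764 with DESeq2. For 48 h against 24 h they numbered 6289 to 8559. Of 250 called named genes 240 were called in every alternative; BOLA2B, called higher, turned to -0.82 without 48 h replicate 1. The count of differences between lines, 475, was the least stable. It was 1204 without the libraries that stand apart (654 higher, 550 lower). DESeq2 called 692, of which 346 were higher, and only the groups compared gave 664, of which 386 were lower. Leaving out 1 library gave 136 to 487 in all, 38 to 251 higher, 98 to 237 lower and 57 to 118 of at least 2-fold; the cause was not tested. Same-numbered libraries did not deviate together (correlations of -0.0766 to 0.0816 over the group pairs compared), so the numbers were not taken to pair the samples; with the replicate number as a block the calls were 10130 for 48 h against untreated, 669 for the difference between lines (338 higher) and 8364 for 48 h against 24 h.

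BOLA2B was the 1 called gene whose sign turned; the other signs that turned were of uncalled genes. Upper-quartile scaling gave 8e-04 for KLF5, 0.044 for GPX2, 0.060 for EGLN3, 0.0079 for KLK1 and 0.10 for ASNS. When 1 library was left out the ranges were -0.20 to 0.0013 for GPX2, -0.10 to 0.22 for EIF2AK3, -0.26 to 0.084 for EGLN3, -0.52 to 0.59 for SEMA3C, -0.25 to 0.25 for ASNS, -0.20 to 0.79 for DPYD and -0.82 to 5.52 for BOLA2B. With 2 treated libraries, small changes of genes near 1 CPM were not detectable at this depth.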
